A study of Arabidopsis thaliana with 42 samples.

Results

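The 14 genes described here rose in heat in wild-type Arabidopsis seedlings and rose far less when cycloheximide, an inhibitor of translation, was in the medium. They were selected on measured values among 27655 loci: a mean level at 90 min of heat of at least 100 and at least 4 times that before heat, a level at 15 min at least 1.5 times that before heat, and a level at 90 min with cycloheximide of at most 25% of that without. The means were taken over 3 libraries with 1 added. Of 815 loci that met the heat terms, 14 met the cycloheximide term and 801 did not. The levels of these genes at 0, 15 and 90 min without cycloheximide and at 90 min with it chose them, so those values are descriptions without a test. Their levels were lower with cycloheximide, but most still stood above the unheated level, so they are called genes with a cycloheximide-sensitive heat rise.

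The study asked how nonsense-mediated decay (NMD), which degrades transcripts with early stop codons, shapes the RNA of heated seedlings. Stranded mRNA sequencing was run on whole seedlings of Columbia-0 (WT) and of the double mutant upf3-1upf1-5 (upf), which lacks full NMD activity per the labels. All plants were 10 days old and were moved to liquid medium 3 h after the start of light. Both genotypes were sampled unheated (WT-0, upf-0) and after 15, 30, 45 and 90 min at 44 °C in light (WT-15 to WT-90, upf-15 to upf-90). Wild type alone was also heated for those times in medium with cycloheximide at 10 µg/L as labelled (WT-C15 to WT-C90), a treatment that the labels describe as inhibiting NMD. Each of the 14 groups held 3 libraries, each from several plants. No unheated sample with cycloheximide and no unheated sample after 0 min entered the data, so heat and the time spent in liquid medium are confounded, and cycloheximide was measured only in heated seedlings.

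Genes that respond to a stimulus fall into primary responders, whose transcription uses factors already present, and secondary responders, which need a protein made after the stimulus. Cycloheximide stalls ribosomes and is the classical means of telling them apart, although it also stabilises some transcripts. Arabidopsis has a well-studied set of secondary responders to cold and drought: factors of the CBF/DREB1 and DREB2 families are made first, bind the dehydration-responsive element (DRE, core A/GCCGAC) and switch on genes for dehydrins and other hydrophilic protective proteins. DREB2A belongs to the heat response as well as to the drought response. The products of its target genes are thought to guard membranes and proteins against loss of water.

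Several of the selected genes are known members of that set. COR47 (AT1G20440) and LTI30 (AT3G50970, a dehydrin family protein) are dehydrins. LTI78 (AT5G52310), better known as RD29A, is the standard DRE reporter gene, and KIN1 (AT5G15960) and KIN2 (AT5G15970) encode small cold-induced proteins. ABR1 (AT5G64750), a repressor of abscisic acid responses, and RAP2.6 (AT1G43160) are transcription factors of the AP2/ERF family. AT1G66500 and AT5G43620 are annotated as pre-mRNA cleavage complex II genes. The others are annotated as a major facilitator transporter (AT2G16660), a heavy metal transport or detoxification protein (AT1G51090), a subtilase (AT4G21323), a COP1-interacting protein-like gene (AT1G30060) and a myelin transcription factor-like gene (AT2G47950). Of the 14 genes, 4 are on a list of 23 DREB and abscisic acid response genes (COR47, LTI78, KIN1 and LTI30).

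The DNA before these genes is shown because DRE cores were frequent there. Matches to ACCGAC or GCCGAC on either strand lay within 500 bases before the annotated gene start in 8 of the 14 genes (57.1%). The share was 16.2% among 757 protein-coding loci that met the heat terms alone and 12.6% among all 27443 protein-coding nuclear loci. Within 250 bases the counts were 6 of 14 (42.9%), against 10.4% and 7.09%. The 200 bases before the gene start are given 5′ to 3′ on the gene's strand, from RefSeq's TAIR10.1 reference, for the 6 genes with a DRE core there, with the DRE cores in capitals (GTCGGT and GTCGGC are the core on the other strand).
LTI78 (chr5:21240517-21240716, plus strand): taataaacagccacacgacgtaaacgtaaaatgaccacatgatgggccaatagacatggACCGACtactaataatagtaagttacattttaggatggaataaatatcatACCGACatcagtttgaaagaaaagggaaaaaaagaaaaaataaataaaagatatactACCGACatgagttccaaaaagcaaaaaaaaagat
LTI30 (chr3:18940443-18940642, plus strand): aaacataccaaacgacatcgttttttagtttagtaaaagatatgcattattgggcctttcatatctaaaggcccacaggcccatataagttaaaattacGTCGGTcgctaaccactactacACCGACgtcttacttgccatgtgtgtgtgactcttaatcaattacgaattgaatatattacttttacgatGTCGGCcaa
AT1G51090 (chr1:18932566-18932765, plus strand): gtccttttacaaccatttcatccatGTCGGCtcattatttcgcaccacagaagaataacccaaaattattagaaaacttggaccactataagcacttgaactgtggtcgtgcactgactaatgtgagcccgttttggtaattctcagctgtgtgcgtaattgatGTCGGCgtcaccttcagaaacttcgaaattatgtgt
AT1G66500 (chr1:24812662-24812861, minus strand): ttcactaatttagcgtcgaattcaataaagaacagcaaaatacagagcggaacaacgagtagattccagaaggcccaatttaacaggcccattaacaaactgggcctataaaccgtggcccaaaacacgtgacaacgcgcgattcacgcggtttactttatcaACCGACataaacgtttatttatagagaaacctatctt
AT5G43620 (chr5:17522286-17522485, plus strand): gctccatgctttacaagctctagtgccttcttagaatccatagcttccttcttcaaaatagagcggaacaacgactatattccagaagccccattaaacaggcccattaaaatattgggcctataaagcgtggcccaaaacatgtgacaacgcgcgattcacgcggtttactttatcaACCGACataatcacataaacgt
ABR1 (chr5:25891249-25891448, plus strand): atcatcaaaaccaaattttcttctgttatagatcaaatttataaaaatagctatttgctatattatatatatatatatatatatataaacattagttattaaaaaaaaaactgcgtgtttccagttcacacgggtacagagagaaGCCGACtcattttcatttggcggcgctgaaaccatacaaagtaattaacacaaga
LTI78 and LTI30 each held 3 cores in these windows and AT1G51090 held 2. In the windows before the paired cleavage complex genes, an identical stretch of 45 bases holds the core of both. Beyond the printed windows, COR47 has a core starting 368 bases before its gene start and RAP2.6 has cores starting 487 and 407 bases before it. The annotated starts of some of these genes lie far before their coding sequence (the COR47 transcript has 2320 bases, of which 798 are coding). When 500 bases before the coding start were searched instead, an alternative added after seeing the data, 10 of 14 genes (71.4%) held a DRE core, KIN1 and KIN2 among them, against 15.9% and 12.9%. RAP2.6 then held none. The choice of the DRE motif followed the identity of the genes, so these shares are a description of this reference sequence and carry no test.

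Other motifs were searched in the same windows. The heat shock element, searched as GAANNTTC or TTCNNGAA, which heat shock factors bind, was within 500 bases in 6 of 14 (42.9%), against 39.0% of the other heat-induced loci and 30.2% of all loci, and within 500 bases before the coding start in 6 of 14 as well, against 51.0% and 33.9%. Within 250 bases of the gene start the element was in 4 of 14 (28.6%), against 24.2% and 16.1%. Of the genes printed above, AT1G51090, AT1G66500 and AT5G43620 hold 1 heat shock element each in the printed window, left there in lower case. AT2G47950, which has no DRE core in its window, shows 2 heat shock elements (capitals) in its last 200 bases.
AT2G47950 (chr2:19623822-19624021, plus strand): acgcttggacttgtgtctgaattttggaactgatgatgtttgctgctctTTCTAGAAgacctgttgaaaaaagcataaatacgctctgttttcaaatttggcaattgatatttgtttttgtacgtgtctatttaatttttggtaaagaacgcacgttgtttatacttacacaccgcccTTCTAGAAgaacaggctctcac
The core of the abscisic acid response element (ACGTG) was within 500 bases of the gene start in 5 of 14 (35.7%), against 43.2% and 35.5%. Within 500 bases before the coding start, the window added after seeing the data, it was in 11 of 14 (78.6%), against 43.5% and 34.9%, so its share depends on the window. The G-box (CACGTG), each match of which contains that core on both strands, was in 2 of 14 (14.3%), against 14.5% and 9.35%. No 500-base window of these genes held the endoplasmic reticulum stress element, against 1.19% and 0.958%. The W-box core (TTGACC or TTGACT), which WRKY factors bind, was in 5 of 14 (35.7%) within 500 bases, against 49.7% and 45.2%, and in 0 of 14 within 250 bases, against 34.2% and 28.4%. A match is only a run of letters, and its absence is a statement on this window alone.

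**Figure D1:**
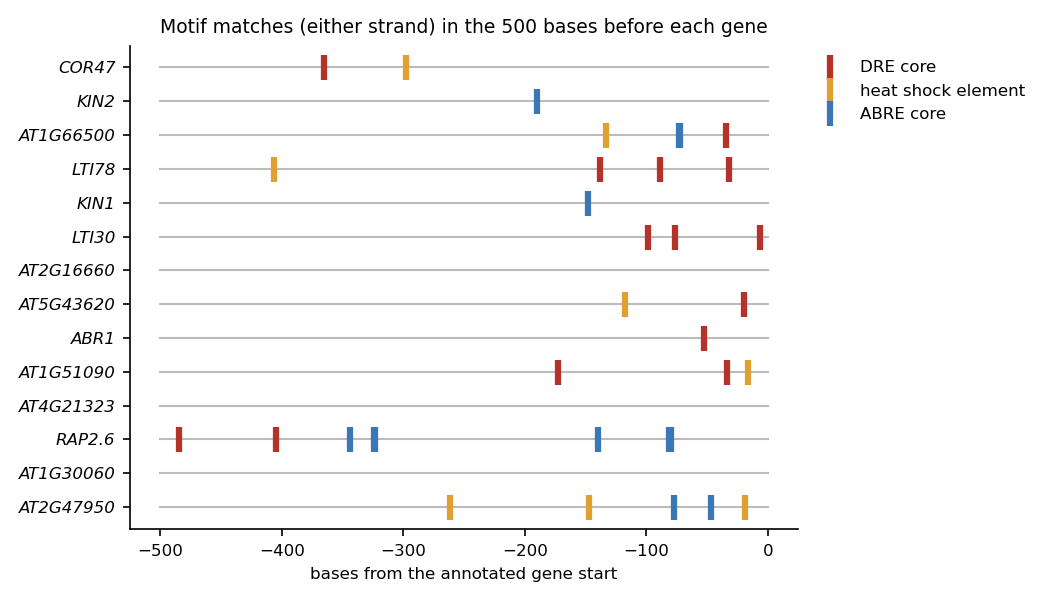
Positions of DRE cores, heat shock elements and abscisic acid response element (ABRE) cores on either strand in the 500 bases before the annotated start of each gene, the x axis giving bases from that start. DRE cores lie within 250 bases of the start in 6 genes and farther upstream in COR47 and RAP2.6.

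The values below are the authors' normalized counts, summed over the transcripts of a locus, and they compare samples, not genes. Library sums, in units of 1000000 (M), ran from 14.7 to 30.96 M and were higher in heat (mean 16.2 M in WT-0, 27.7 M in WT-90 and 20.5 M in WT-C90). The mean correlation with the other libraries of the group was at least 0.975, and 35 of 42 libraries were closest to a library of their own group. The mutated genes were checked first: UPF1 stood at 636 ± 161 (SD, n = 3) in upf-0 against 2150 ± 140 in WT-0, and UPF3 at 170 ± 25.8 against 655 ± 13.6. RNA came from whole seedlings, so fewer cells of a type and less RNA per cell cannot be told apart. The 6 shoot photosynthesis markers and the 6 root markers were above 0 in every group. The summed root markers ranged from 30759.5 to 40993.5 in WT-0 and from 5608 to 6570 in WT-90. At 30 min they ranged from 26830.5 to 33275 with cycloheximide and from 10234 to 17271.5 without, and 2 of the 6 (PYK10 and SHR) were called higher. Their part in the results below was not tested.

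Replicate 3 of WT-C45 stood apart from the other libraries of its group in these genes. All 14 had their highest WT-C45 value in it, at 1.35 to 7.20 times the mean of the others (median 2.40), while the 801 other heat-induced loci had a median ratio of 0.92 and all loci tested one of 0.95. In the same library 18 rapidly induced AP2/ERF and zinc finger factors had a median ratio of 0.70. Its summed count was 23.48 M against 20.2 and 20.7 M. The test results and ratios at 45 min with cycloheximide are therefore also given without it, an alternative added after seeing the data for all but the tests of the 14 genes.

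The cold and dehydration genes were higher in heat, and with cycloheximide at 30 min each was below its level without. COR47 measured 3651, 3747.5 and 3780.5 in the WT-0 libraries and 39696, 32568 and 39520.5 after 30 min of heat. With cycloheximide it measured 9265, 10566.5 and 11388.5 at 30 min, below every library without it. The log2 difference was −1.84 (SE 0.26, adjusted p = 7.3e-07, limma, adjusted over all loci tested), and −1.72 (SE 0.26) at 45 min, or −2.18 (SE 0.23) without replicate 3 of WT-C45.

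LTI78 stayed near its unheated level with cycloheximide in all but 1 library. Before heat it measured 642.5, 656.5 and 586.5, and after 30 min 4298, 3495 and 3579.5. With cycloheximide it measured 444.5, 511 and 477.5 at 30 min and 586.5, 516.5 and 539.5 at 90 min, at or below the unheated level. At 45 min the values were 401.5, 511.5 and 2607, so a single library carried the mean of 1173. The log2 difference from heat alone was −2.98 (SE 0.37, adjusted p = 5.8e-08, limma) at 30 min and −2.61 (SE 0.37) at 45 min, or −3.46 (SE 0.25) without the library at 2607.

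LTI30, the other dehydrin, measured 1040, 643.5 and 1064 at 30 min of heat and 169.5, 297 and 229.5 with cycloheximide, against 233, 133.5 and 156 before heat. The groups at 30 min did not overlap, and the log2 difference was −1.98 (SE 0.26, adjusted p = 1.9e-07, limma).

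KIN1 measured 1979.5, 1435 and 1959 at 30 min of heat and 405, 720 and 537 with cycloheximide, and KIN2 5312, 4670.5 and 5447.5 against 1046.5, 1678 and 1186. For both, every library with cycloheximide was below every library without it. From a mean of 94.5 before heat, KIN1 still reached 684 ± 151 (SD, n = 3) at 90 min with cycloheximide, while KIN2 went from 1092 ± 380 to 1707 ± 270. The genes lie 892 bases apart, and their coding sequences of 201 bases each are 95.02% identical. The transcripts, of 829 and 750 bases, share 63 stretches of 31 bases (8.75% of those in KIN2). The split of reads from these shared parts is uncertain.

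The AP2/ERF factors ABR1 and RAP2.6 started from low levels. ABR1 measured 3, 18.5 and 6 before heat, 1057, 655.5 and 712.5 at 30 min and 131, 125 and 118 at 30 min with cycloheximide, a log2 difference of −2.66 (SE 0.41, adjusted p = 3.8e-06, limma). Its cycloheximide level at 15 min was already only 17.9% of that without. RAP2.6 measured 397, 241 and 371 at 30 min of heat and 76, 68.5 and 74 with cycloheximide, close to its unheated values of 65, 35 and 43. Neither pair of groups overlapped. The coding sequences of ABR1 (1176 bases) and RAP2.6 (579 bases) align over 572 bases, gaps left out, at 75.7% identity. Their transcripts share no stretch of 31 bases.

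The cleavage complex genes were already high at 15 min. AT1G66500 measured 43.5, 91.5 and 94 before heat, 1064, 956 and 1088.5 after 15 min and 3071, 2794 and 3521.5 after 30 min. With cycloheximide it measured 702.5, 682.5 and 496 at 15 min and 1027.5, 890.5 and 972 at 30 min. The 15 min level was 60.5% of that without and the 30 min level 30.8%. Its near copy AT5G43620 went from a mean of 25.2 ± 13.003 (SD, n = 3) before heat to 342 ± 14.5 at 15 min and 774 ± 95.1 at 30 min, against 231 ± 43.2 and 204 ± 26.3 with cycloheximide. The log2 differences at 30 min were −1.69 (SE 0.23) and −1.92 (SE 0.26). Their coding sequences are 94.96% identical and they share 300 stretches of 31 bases, so reads may be misassigned between them.

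The deepest loss was in AT1G51090, the heavy metal transport or detoxification gene. It measured 849.5, 663.5 and 644 at 30 min of heat and 24.5, 44.5 and 33 with cycloheximide, from 2.5, 6 and 3.5 before heat. Its log2 difference of −4.39 (SE 0.45, adjusted p = 2.0e-09, limma) was the lowest of the 14 genes at 30 min. At 45 min with cycloheximide it measured 42.5, 72 and 418.5, the last value from the library that stood apart.

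The subtilase AT4G21323 and the COP1-interacting protein-like gene AT1G30060 had their highest wild-type means at 30 min. AT4G21323 measured 1007, 774 and 799 at 30 min and 638.5, 600 and 524 at 90 min, against 74, 82 and 100 at 30 min with cycloheximide (log2 difference −3.32, SE 0.27, adjusted p = 7.5e-12, limma). AT1G30060 was listed at 0 in every WT-0 library, measured 911, 765 and 938 at 30 min and 402.5, 401.5 and 373 at 90 min, and reached 50.5, 61.5 and 96 at 30 min with cycloheximide. The WT-45 to WT-30 difference passed the test in neither gene.

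The remaining genes were the transporter AT2G16660 and AT2G47950. AT2G16660 had the smallest loss at 30 min, from 871 ± 22.7 (SD, n = 3) to 290 ± 70.5, a log2 difference of −1.62 (SE 0.32, adjusted p = 0.00011, limma). AT2G47950 had the lowest level of the 14 genes at 90 min, 129 ± 21.5, and at 30 min it stood at 87.8 ± 21.8 without and 11.3 ± 2.57 with cycloheximide.

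**Figure D2:**
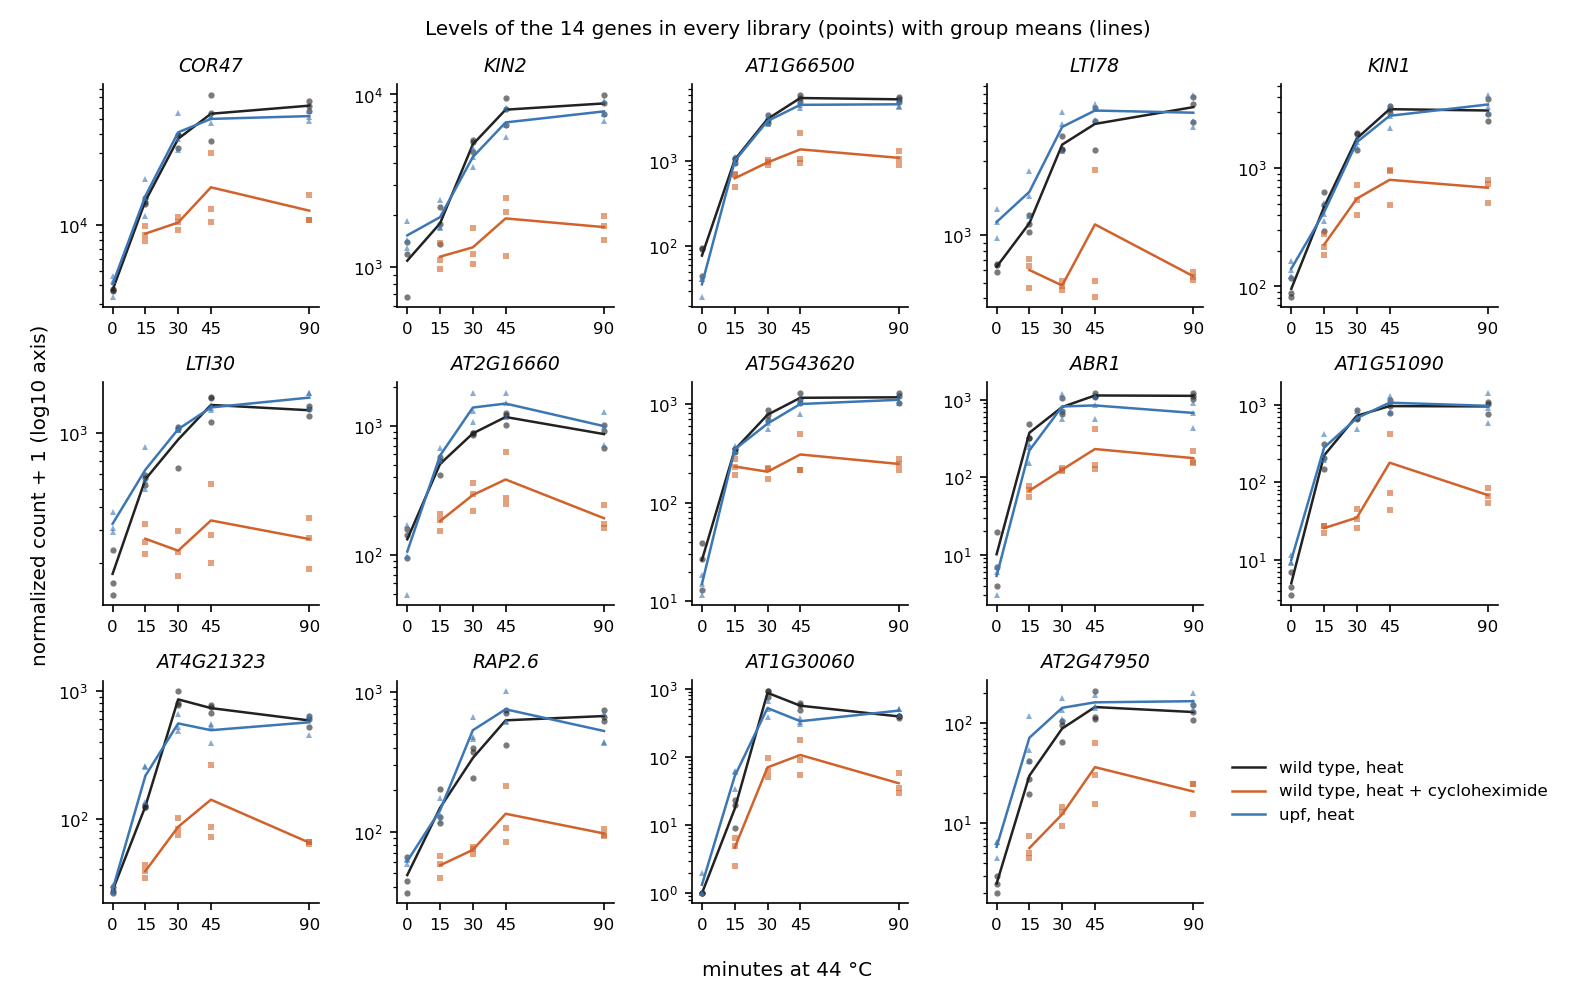
Normalized count plus 1 on a log10 axis against minutes at 44 °C for each of the 14 genes, with every library as a point and group means as lines, for wild type, wild type with cycloheximide and upf. The cycloheximide points lie below the others from 30 min on, and the wild-type and upf lines run close together.

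Neither the 30 nor the 45 min groups chose these genes, so the cycloheximide difference was tested there. At 30 min all 14 genes were called lower (a 2-fold or larger difference with an adjusted p below 0.05), where 2.44% of the 20747 loci tested were. Their log2 differences ran from −4.39 to −1.62 with a median of −2.08, against a median of 0.06 over all loci and −0.20 over the 801 other heat-induced loci, of which 78 were called lower and 155 higher. At 45 min all 14 were again called lower, where 2.48% of loci were, with log2 differences from −3.11 to −1.72 and a median of −2.16. The 801 others had a median of −0.41, with 109 lower and 103 higher, or −0.37, 129 and 130 without replicate 3 of WT-C45. The libraries of the groups compared did not overlap for any of the 14 genes at either time, and the share of all loci without overlap was not computed. Without the WT-C45 library that stood apart, all 14 stayed called at 45 min, with a median of −2.61 and a range from −4.07 to −2.16. The selection used the same effect at 90 min.

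As a share of the level without the inhibitor, the level with cycloheximide was lower at 30 than at 15 min in each of the 14 genes. The selection used WT-15, the base of the 15 min share, and this fall was not tested. It was small in AT2G16660 (36.1% to 33.3%) and ABR1 (17.9% to 15.5%), and AT1G30060 was low in WT-15 (mean 16.3). The share was 11.6% to 67.5% at 15 min (median 43.3%) and 4.86% to 33.3% at 30 min (median 23.62%). At 45 min it was 18.6% to 32.8% (median 23.8%), or 6.08% to 22.6% (median 16.5%) without the library that stood apart. At 90 min, where the share chose the genes, it was 7.19% to 22.3%. The 801 other heat-induced loci had medians of 98.3%, 86.9%, 75.0% (75.7% without that library) and 81.7% at the 4 times. The test of whether the log2 difference with cycloheximide changed between 30 and 45 min, added after seeing the data, called none of the 14 genes (limma, smallest adjusted p = 0.52, 1 gene at an unadjusted p under 0.05), where 0.0386% of loci were called. Without replicate 3 of WT-C45 it also called none.

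**Figure D3:**
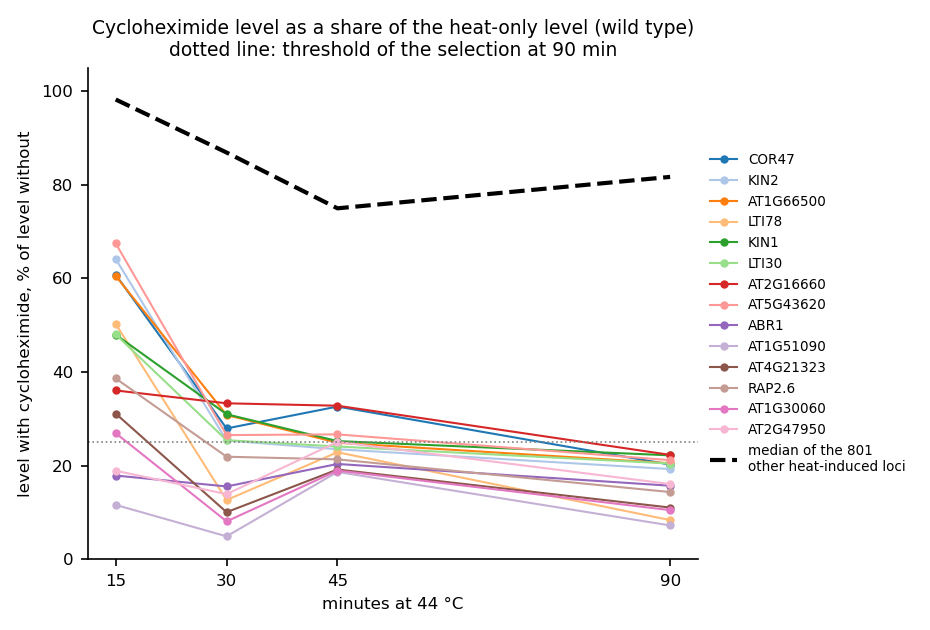
Level with cycloheximide as a percentage of the level without it (means of 3 libraries plus 1) at 15, 30, 45 and 90 min, 1 line per gene, with the median of the 801 other heat-induced loci dashed and the 25% threshold of the selection dotted. All 14 genes lie below the dashed line at every time. The selection fixed the 90 min values and also used WT-15, the base of the 15 min values.

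Part of the heat rise persisted with cycloheximide. Leaving aside AT1G30060, which was listed at 0 before heat, the WT-C45 means were 1.75 to 35.7 times the WT-0 means over 13 genes (median 5.15, values plus 1), and 10 of the 13 were at least 2-fold higher. Without replicate 3 of WT-C45 the ratios were 0.73 (LTI78) to 13.45 (ABR1), with a median of 3.12, and 8 of the 13 were at least 2-fold higher. LTI78 was then below its unheated level, and AT1G51090 went from 35.7 to 11.7. At 90 min the ratio was 0.87 for LTI78, 1.54 for LTI30, 1.56 for KIN2 and up to 17.41 for ABR1. No test is given for these ratios, since the selection used WT-0. From 15 to 45 min within the cycloheximide series, 8 of 14 genes were called higher (AT1G66500, KIN1, ABR1, AT1G51090, AT4G21323, RAP2.6, AT1G30060 and AT2G47950), where 3.99% of loci were. Of the 801 other heat-induced loci, 370 (46.2%) were called higher. Their median log2 difference was 0.84, against 1.09 for the 14 genes. COR47 (log2 difference 0.87), AT2G16660 (0.95) and KIN2 (0.68) had an adjusted p below 0.05 under 2-fold. LTI30 (0.22), AT5G43620 (0.30) and LTI78 (0.46) were not called. The count of 8 genes rests in part on the library that stood apart. Without it 5 genes were called (AT1G30060, AT1G51090, AT2G47950, AT4G21323 and KIN1) and LTI78, LTI30 and AT5G43620 turned to −0.38, −0.16 and −0.11.

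The transcripts of the factors that bind DRE cores were not called lower with cycloheximide. DREB2A, which drives dehydration and heat genes, measured 97.5, 111 and 119.5 before heat, 8341.5, 7286 and 9296 at 30 min of heat and 10104, 9724.5 and 10648.5 at 30 min with cycloheximide. Its log2 difference with cycloheximide was 0.30 (95% confidence interval 0.02 to 0.57, adjusted p = 0.074, limma) at 30 min and −0.21 (−0.48 to 0.06, adjusted p = 0.21) at 45 min. DREB2B differed by −0.64 and −0.95, with an adjusted p of 0.048 and 0.0043 under 2-fold, and DREB2C by 0.47 and −0.72 (adjusted p = 0.14 and 0.023, limma). Without replicate 3 of WT-C45 the 45 min differences of DREB2A, DREB2B and DREB2C were −0.23, −0.92 and −0.74, none of them called. CBF2, a cold-response factor, measured 89, 85.5 and 52 at 30 min of heat and 2073, 2408 and 2370 with cycloheximide, a log2 difference of 4.94 (SE 0.30, adjusted p = 2.5e-14, limma). CBF1 and CBF3 were also called higher at both times, with log2 differences of 5.16 and 3.51 at 30 min, and all 3 remained called at 45 min without replicate 3 of WT-C45. DDF1, a relative of the CBF factors, measured 1.00 ± 0.50 (SD, n = 3) before heat, 3938 ± 342 after 15 min of heat and 3975 ± 483 at 15 min with cycloheximide. At 30 min DDF1 was called higher with cycloheximide (log2 difference 1.36, adjusted p = 0.0053, limma). At 45 min its log2 difference was 0.99, under 2-fold, or 1.29 and called without replicate 3 of WT-C45. RNA alone was measured, and the proteins were not.

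Within the list of 23 DREB and abscisic acid response genes, the 19 that are not among the selected genes were mixed with cycloheximide. At 45 min 3 were called lower (COR15A, ERD10 and the phosphatase gene HAI2) and 1 higher (the phosphatase gene PP2CA), with a median log2 difference of −0.21. Without replicate 3 of WT-C45 the phosphatase gene HAI1 was also called lower, and the median was −0.23. At 30 min 4 were lower and 2 higher, with a median of 0.05. ERD10, a dehydrin, measured 23351.5, 18970 and 20690.5 at 30 min of heat and 6269, 6177 and 6688.5 with cycloheximide (log2 difference −1.71, SE 0.20). COR15A, a cold-induced chloroplast protein, had a log2 difference of −2.99 (SE 0.44, adjusted p = 1.5e-06, limma) at 30 min. Both missed the selection narrowly, with 90 min levels at 26.8% and 25.7% of those without cycloheximide. The abscisic acid marker genes RD29B and RAB18 were not called at either time, with log2 differences of 0.05 and −0.78 at 30 min. Among 18 rapidly induced AP2/ERF and zinc finger factors, which include CBF1, CBF2, CBF3 and DDF1, 15 were called higher and none lower at 30 min with cycloheximide. At 45 min it was 13 and none (14 and none without replicate 3 of WT-C45). Of all 20747 loci tested, 2612 were called higher at 30 min and 2514 at 45 min, or 13.6% of loci at 45 min without that library.

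**Figure D4:**
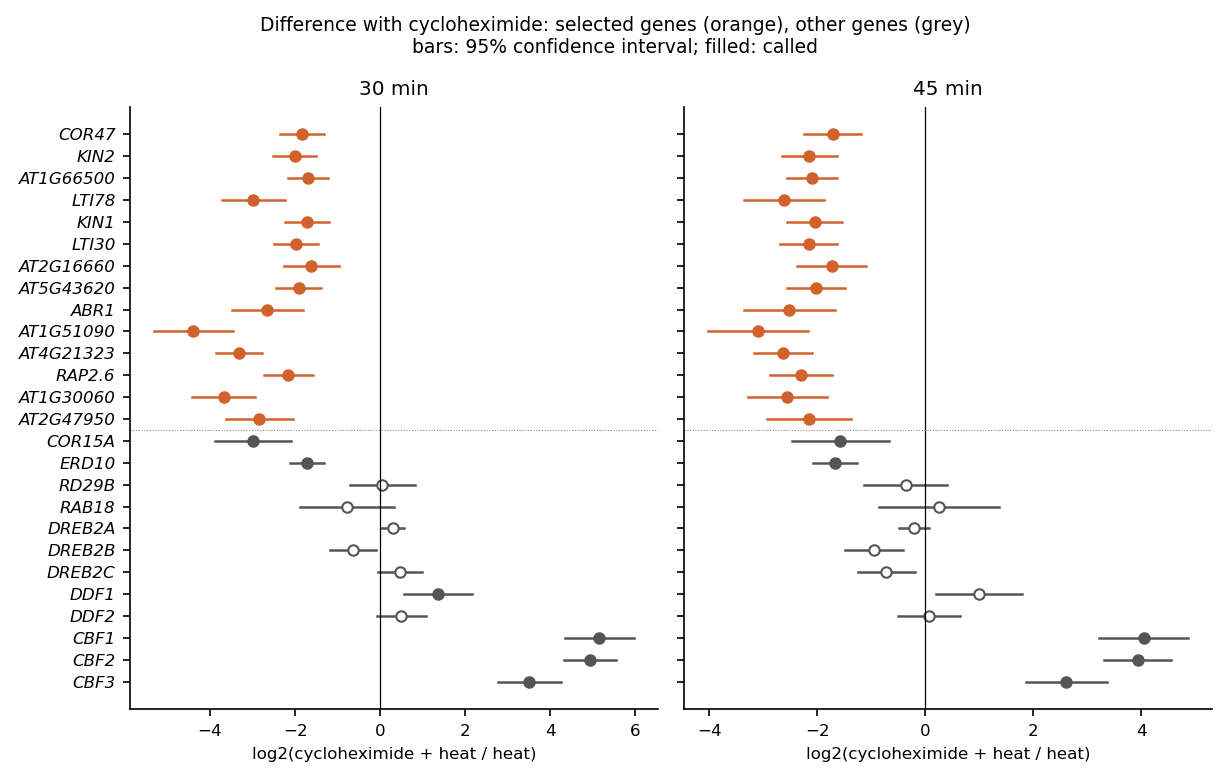
Log2 difference between heat with cycloheximide and heat alone at 30 and 45 min (x axis) for the 14 selected genes in orange and 12 other DREB, CBF and abscisic acid response genes in grey, with 95% confidence intervals and filled points for called differences. The 14 genes, COR15A and ERD10 lie left of 0, DREB2A lies near 0 and CBF1, CBF2 and CBF3 lie right of 0.

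HSP101 and HSFA2 serve as reference genes of the classical heat response. HSP101, the disaggregase needed for acquired thermotolerance, measured 371122, 346294 and 327986.5 at 30 min and 169013, 159839 and 174202.5 with cycloheximide, a log2 difference of −1.05 (SE 0.21, adjusted p = 0.00016, limma). HSFA2, a heat-induced heat shock factor, had a log2 difference of −0.74 (SE 0.16), under the 2-fold needed for a call. The differences of these genes from the 14 were not tested. BIP3, an endoplasmic reticulum chaperone gene, stayed at 20 or less in every wild-type library without cycloheximide.

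The heat rise of the 14 genes was measured again in upf, none of whose libraries entered the selection. After 15 min 11 of 14 were called higher than in upf-0, where 8.03% of loci and 688 of the 801 other heat-induced loci were. LTI30 (log2 difference 0.93), LTI78 (0.61) and KIN2 (0.34) were not, and the last 2 had overlapping groups. LTI78 and KIN2 were also the genes with the smallest WT-15 to WT-0 ratios, 1.90 and 1.64. After 30, 45 and 90 min all 14 were called higher, where 10.7%, 11.4% and 11.0% of loci were. The groups did not overlap for any of the 14, and the share of all loci without overlap was not computed. Heat was a term of the selection in wild type, and 797, 796 and 793 of the 801 other loci were called higher at these times. At 90 min the log2 rises of the 13 genes other than AT1G30060 ran from 2.25 (SE 0.26, LTI30) to 7.07 (SE 0.23, AT1G66500). AT1G30060 was listed at 0 in 2 upf-0 libraries and at 1 in the other, and measured 506, 412 and 512.5 at 90 min.

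At 30 and 45 min, the times at which upf and wild type were compared by a test, no selected gene passed the threshold. At 30 min none of the 14 was called in either direction (limma, smallest adjusted p = 0.068, 3 at an unadjusted p under 0.05), where 9.79% of loci were. At 45 min none of the 14 was called (limma, smallest adjusted p = 0.093, 2 at an unadjusted p under 0.05), where 10.4% of loci were. Calls were also few among the 801 other heat-induced loci, with 20 higher and 11 lower at 30 min and 8 higher and 7 lower at 45 min. The log2 differences of the 14 genes ran from −0.77 to 0.69 at 30 min and from −0.75 to 0.33 at 45 min. The lowest in both were AT1G30060 and AT4G21323, which had no overlap between the genotypes at either time: AT1G30060 measured 584, 620.5 and 486 in WT-45 and 373, 299.5 and 327.5 in upf-45. At 15 min, where WT-15 was used in the selection and no test is given, AT1G30060 measured 59.5, 32.5 and 62 in upf and 19, 8 and 22 in wild type. AT4G21323 measured 258.5, 135 and 254 against 121.5, 122 and 128. In these libraries both were higher in upf at 15 min and lower at 30 and 45 min, a change of direction that was not tested. ABR1 was lower in every upf library at 15 min, at 249, 265.5 and 150.5 against 318, 490.5 and 319. The other 11 genes overlapped at 15 min, AT2G47950 at a shared value of 41.5. Before heat, LTI78 measured 1209, 961 and 1477 in upf-0 against 642.5, 656.5 and 586.5 in WT-0. LTI30 measured 305.5, 292 and 374 against 233, 133.5 and 156. KIN1, AT1G51090 and AT2G47950 were also higher in every upf-0 library, AT1G66500 was lower and the other genes overlapped. At 90 min ABR1 and COR47 were lower and AT1G30060 higher in every upf library. The selection used WT-0 and WT-90, so no test is given there. The genotypes also did not overlap for AT2G16660, RAP2.6 and AT2G47950 at 30 min, all higher in upf. At 45 min they did not overlap for AT1G66500, which was lower in upf. None of the differences at 30 and 45 min was called. The share of all loci without overlap was not computed at any of these times, so the lack of overlap in single genes is only a description. The comparisons of upf and of cycloheximide use the same WT-30 and WT-45 libraries. In them COR47 differed by −1.72 with cycloheximide and by −0.06 in upf at 45 min, and LTI78 by −2.61 and 0.32. For COR47 the 95% confidence interval of the upf difference was −0.58 to 0.47, and for LTI78 it was −0.42 to 1.07. In upf-45 against WT-45, 7 of 11 seed maturation genes were called higher (median log2 difference 3.23) and 3 of 6 root markers were called lower, with summed root levels of 4648.5 to 4991.5 against 7791 to 13184. Their part in these results was not tested.

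**Figure D5:**
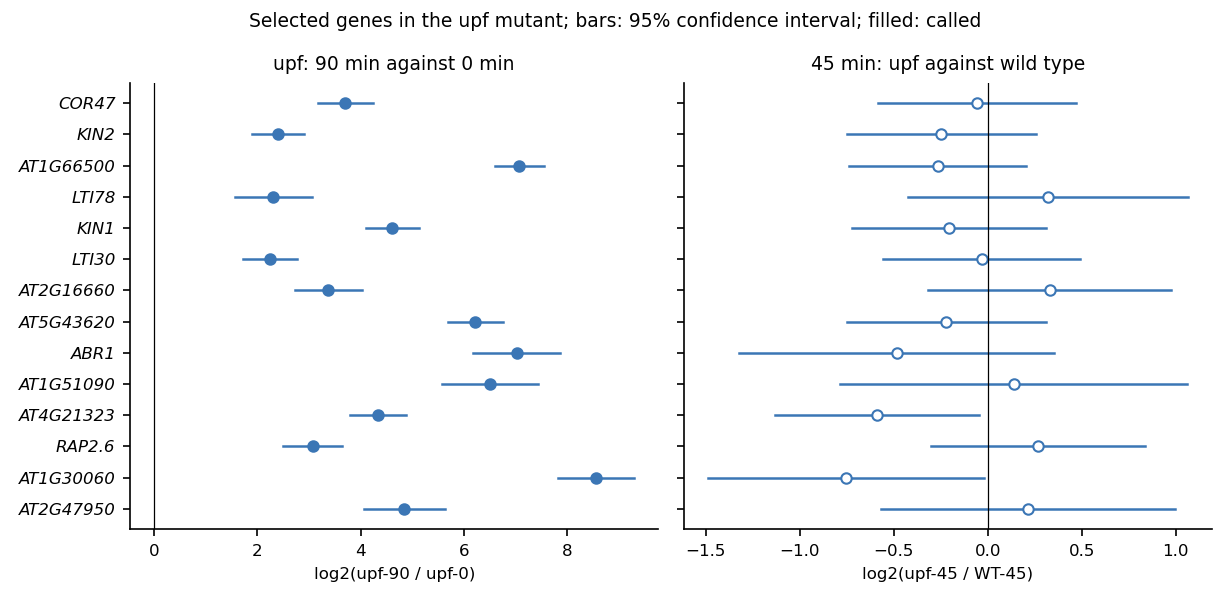
Log2 differences with 95% confidence intervals for each of the 14 genes, at left upf-90 against upf-0 and at right upf-45 against WT-45, with filled points for called differences. All 14 points at left are filled and lie right of 2, and all 14 at right are open and lie between −0.75 and 0.33.

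Between 30 and 45 min of heat in wild type, none of the 14 genes was called in either direction (limma), and 6 had an unadjusted p under 0.05. Calls were rare over all 20747 loci tested, with 132 higher (0.636%) and 140 lower. Among the 801 other heat-induced loci 24 were called higher and 1 lower. The log2 difference was positive in 12 of the 14 genes, with a median of 0.55 against 0.31 for the 801 others. AT1G66500 (log2 difference 0.82, adjusted p = 0.034) and KIN1 (0.84, adjusted p = 0.050) passed the p threshold below 2-fold. The step from 30 to 45 min was not called different between upf and wild type for any of the 14 (limma, 0 at an unadjusted p under 0.05), where 0.00482% of loci were called.

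The selected genes share little in structure. Their longest annotated transcript had a median of 1282 bases, against 1484 for the other heat-induced loci and 1517 for all loci. Single-exon genes made up 28.6% of them, against 28.4% and 18.9%. In the deposited data, 12 of the 14 genes have a single transcript.

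Values near the thresholds show how the selection falls. Just inside the cycloheximide term were AT2G16660 (22.3%), KIN1 (22.2%), AT5G43620 (21.1%) and AT1G66500 (20.5%), and just outside were AT1G01940 (25.3%), COR15A (25.7%), FIB (25.8%) and ERD10 (26.8%). Just inside the 15 min term were KIN2 (1.64) and LTI78 (1.90), and just outside were AT3G55580 (1.36) and the endoplasmic reticulum chaperone genes BIP1 (1.25) and BIP2 (1.21). The term for 90 against 0 min left out AT1G75860 (3.01) and HVA22D (1.77). The smallest ratio inside it was 6.54 in AT2G16660. The lowest 90 min level inside was that of AT2G47950 (130, with 1 added), and the highest outside was that of UBC12 (62.5). With every library scaled to the same total, 6 of the 14 genes met all terms (AT1G30060, RAP2.6, AT1G51090, AT4G21323, LTI78 and ABR1). Their calls at 30 and 45 min with cycloheximide held under that scaling for all 14.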

How the data were processed

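The authors deposited normalized counts per transcript and lane, whole numbers treated here as a score because they are scaled and rounded. The submitters' processing notes name kallisto, sleuth and TAIR10. No source used here gives versions or the scaling, and the authors' tables of comparisons were not used. Read depth is unknown. Lanes were averaged (r at least 0.905), transcripts summed per locus, and log2(value + 1) was fitted with limma 3.58.1 (R 4.3.3) with a mean per group over 42 libraries, a variance trend and Benjamini-Hochberg adjustment over the 20747 loci with at least 10 in at least 3 libraries. All 14 selected genes passed this filter. A call needed an adjusted p under 0.05 and a 2-fold difference. Fold changes understate low genes. The fit was tested on simulated data. The selected genes, lists, motifs and tests were chosen with earlier results of these data known, and 10 comparisons were fixed then. Named genes were to be list members, those highest in WT-45, those with extreme changes and those nearest the thresholds, plus HSFA2, HSP101 and BIP3; here all 14 are named. Lists used were DREB and abscisic acid response, rapid AP2/ERF and zinc finger factors, shoot, root and seed maturation markers. List genes were kept where name and locus matched in the reference (241 of 254). Replicates are separate samples per the series text. At 30 min with and without cycloheximide, same-numbered libraries deviated together (r 0.13 to 0.31), and a replicate block changed no call there. Loci were matched to TAIR10.1 by locus tag (27445 of 27655), which is also the source of sequences (Python 3.11.15, pandas 2.3.3).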

Additional observations from a re-analysis of the deposited data

How the results depend on the processing

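Counts of called genes under other pseudocounts, filters, scalings, lanes, groups, variance models and a replicate block stayed within 1.5-fold of those given. With the replicate block all 14 genes stayed called at 30 and 45 min with cycloheximide and 8 from 15 to 45 min, and it changed no other call; same-numbered libraries deviated together only at 30 min with and without cycloheximide. Leaving out 1 library gave 14 of 14 at 30 and 45 min with cycloheximide and in upf at 30, 45 and 90 min, 11 to 12 in upf at 15 min, 0 for upf against wild type, 0 to 1 for WT-45 against WT-30 (1 without WT-45 replicate 1), and 5 to 11 for WT-C45 against WT-C15 (11 without WT-C45 replicate 1 and 5 without replicate 3). The selection gave 13 to 18 genes with 1 library left out, 6 with equal library totals (COR47, AT1G66500, AT2G16660, AT2G47950, LTI30, KIN1, KIN2 and AT5G43620 were lost), 34 with a looser limit at 90 min (WT-90 at least 3 times WT-C90) and 7 with a stricter one (at least 6 times). Equal totals moved the median of all loci to 0.32 and 0.40 at 30 and 45 min with cycloheximide, and the share of calls that were higher from 83.8% and 83.0% to 93.9% and 95.7%, with 14 of 14 genes still lower. They moved that share from 63.3%, 43.9%, 39.2% and 35.3% to 47.2%, 19.4%, 16.2% and 14.8% in upf at 15, 30, 45 and 90 min, from 48.5% to 14.4% for WT-45 against WT-30, and from 53.5% to 21.8% from WT-C15 to WT-C45. In the last comparison equal totals turned LTI30 and AT5G43620 to −0.12 and −0.044. With any 1 library left out, the log2 difference there ran from −0.38 to 0.97 for LTI78, −0.16 to 0.54 for LTI30 and −0.11 to 0.50 for AT5G43620. Among these fits each gene was negative only without WT-C45 replicate 3. The cause was not tested.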
